A study of Mus musculus with 12 samples.

Results

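The genes described here are 8 ligands and receptors of the tumour necrosis factor (TNF) superfamily: the ligands Tnf, Tnfsf12 (TWEAK), Ltb (lymphotoxin beta) and Tnfsf13b (BAFF), and the receptors Tnfrsf1a, Tnfrsf1b, Tnfrsf12a (Fn14) and Ltbr. They were taken by mouse symbol from a table of 52636 Ensembl gene identifiers, and all 8 were found. RNA from paw joints of 12 mice was sequenced, 4 mice in each of 3 groups, with 1 animal per library. KBxN + 6F2 mice had received arthritogenic K/BxN serum and 6F2, an agonistic antibody to SIRPa, an inhibitory receptor of myeloid cells. KBxN + aGP120 mice had received the same serum and anti-gp120, the control antibody, and both groups were taken at day 7 after serum. Naive + aGP120 mice had received anti-gp120 and no serum, so that every mouse had been given an antibody. The tissue is whole joint, which holds many cell types. Serum transfer models the effector phase of arthritis, since the disease is brought by antibodies made in another mouse.

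TNF superfamily ligands are trimers made as membrane proteins, some of which are cut free, and they act through receptors on neighbouring cells. TNF acts through Tnfrsf1a, found on most cells, and through Tnfrsf1b, which is found mainly on blood-derived and endothelial cells, and blocking TNF is a treatment of human arthritis. TWEAK acts through Fn14, a receptor known to be made in injured and growing tissue, lymphotoxin beta acts through Ltbr on stromal cells, and BAFF keeps B cells alive. These receptors recruit TRAF adaptors and switch on the NF-kB transcription factors, which in turn raise chemokines, adhesion molecules and their own inhibitors.

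On genome build GRCm38, in the GENCODE M21 annotation, all 8 genes are protein-coding. Tnf (ENSMUSG00000024401, chr17:35199381-35202007, minus strand) and Ltb (ENSMUSG00000024399, chr17:35194439-35196320, plus strand) are close neighbours, and Tnfrsf1a (ENSMUSG00000030341, chr6:125349362-125362484, plus strand) and Ltbr (ENSMUSG00000030339, chr6:125306571-125313885, minus strand) also lie near each other. Tnfrsf12a (ENSMUSG00000023905) is at chr17:23675445-23677468 on the minus strand, Tnfrsf1b (ENSMUSG00000028599) at chr4:145213463-145246870 on the minus strand, and Tnfsf13b (ENSMUSG00000031497) at chr8:10006467-10039072 on the plus strand. Tnfsf12 (ENSMUSG00000097328) is at chr11:69686250-69695849 on the minus strand, and 731 of its 1515 exon bases, 48.3%, also belong to the read-through gene Tnfsfm13 on the same strand. How reads in that stretch were assigned is not given in the sources used here, so the Tnfsf12 values are uncertain.

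The promoter windows of the ligands Ltb and Tnf are shown because these genes are close neighbours and both had very low counts. Each window runs 5′ to 3′ on the gene's strand from 250 bases before to 50 after the RefSeq start site (GRCm38.p6). The Ltb window is chr17:35194257-35194556 on the plus strand, with a match to the NF-kB consensus in capitals that begins at position -87. The Tnf window is chr17:35201958-35202257 on the minus strand, with the TATA box letters TATAAA in capitals, beginning at position -29.
Ltb promoter: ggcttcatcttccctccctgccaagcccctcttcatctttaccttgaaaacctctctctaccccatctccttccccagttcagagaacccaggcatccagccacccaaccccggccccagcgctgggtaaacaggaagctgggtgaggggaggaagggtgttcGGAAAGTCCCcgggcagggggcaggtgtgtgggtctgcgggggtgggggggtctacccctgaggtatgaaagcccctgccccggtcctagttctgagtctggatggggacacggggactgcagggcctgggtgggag
Tnf promoter: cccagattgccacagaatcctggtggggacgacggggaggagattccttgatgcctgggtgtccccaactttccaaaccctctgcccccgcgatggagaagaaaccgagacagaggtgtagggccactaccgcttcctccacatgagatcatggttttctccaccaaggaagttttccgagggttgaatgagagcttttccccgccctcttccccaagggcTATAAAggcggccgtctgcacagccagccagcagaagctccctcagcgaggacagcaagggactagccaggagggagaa
The motifs were searched on both strands. The Ltb window held no TATAAA and the Tnf window no NF-kB consensus match, so that no matches overlapped. Of 32851 windows of 300 bases in the RefSeq table, 8.46% held an NF-kB consensus match and 13.6% held TATAAA. Windows were found for 7 of the 8 genes, 8 windows in all, and Ltb was the 1 gene of these with an NF-kB consensus match. Such a match describes letters in a window and was not set against binding data.

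The Tnf transcript is known for an AU-rich element in its 3′ untranslated region, which the RNA-binding protein Zfp36 uses to destabilise it. A 30-base stretch of it, chr17:35199677-35199706 on the minus strand of GRCm38, is shown because Zfp36 is among the genes described below. It is given as T in place of U, all in capitals, since every base lies in at least 1 of the overlapping TTATTTATT places, the first of which begins just before the stretch.
Tnf AU-rich stretch: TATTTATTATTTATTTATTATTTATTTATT
The Tnf transcript held TTATTTATT at 5 overlapping places, searched on the transcript's own strand. Of 58797 protein-coding transcripts, 5.03% held it at least once and 0.121% at least as often as Tnf. Among the other genes described here Tnfsf13b had 1 place, and the remaining 6 had 0.

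Total counts ran from 13791454 to 17597920 in KBxN + 6F2 libraries, from 6893969 to 13416033 in KBxN + aGP120 libraries and from 14289363 to 16205593 in naive libraries, and a detection floor of 3 counts equals 0.17 to 0.394 CPM. CPM is the usual depth-scaled read count, here with TMM factors. KBxN + aGP120 mouse 1 stood apart from the other 3 of its group in the direction of naive joints. The summed CPM of 14 macrophage and monocyte markers was 765 to 971 in KBxN + 6F2 mice, 601 in this mouse and 1190 to 1270 in the other 3 of its group, and 629 to 666 in naive mice. The summed CPM of 12 fibroblast markers was 14900 to 19300 in KBxN + 6F2 mice, 13000 in this mouse and 33400 to 47500 in the other 3, and 12400 to 19800 in naive mice. Most of this sum was Prg4 and the collagens Col1a1, Col1a2 and Col3a1, so it mainly shows these genes. Of the 12 markers, 5 were called higher in KBxN + aGP120 than in naive mice and 0 lower, where 5.87% and 4.45% of all genes were. Values without mouse 1 are therefore given beside the results of this group. This mouse was set apart by looking at these same data, so that values without it are a description and not independent evidence. In KBxN + aGP120 mice 2 and 4, 1744 smell and taste receptor genes, whose known role lies outside joints, summed to 516 and 221 CPM, against at most 28.9 CPM in every other library. The noncoding gene Gm26917 took 1.68% to 2.52% of counts in KBxN + 6F2 mice, 2.89% in KBxN + aGP120 mouse 1, 8.28%, 6.82% and 4.55% in mice 2, 3 and 4 of that group, and 1.63% to 2.39% in naive mice.

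Levels per length, in CPM per kilobase of exon, put Tnfrsf1a above the other 7 genes in all 12 libraries. In KBxN + 6F2 joints it had 22.7 ± 2.09 CPM per kb (SD, n = 4, as for all levels below), followed by Ltbr with 12.4 ± 0.724. Tnfrsf1b had 5.05 ± 0.947, Tnfrsf12a 4.7 ± 1.19 and Tnfsf12 3.9 ± 0.462 CPM per kb in these joints, and the libraries of these 3 genes overlapped. Ltb had 0.475 ± 0.198, Tnf 0.426 ± 0.197 and Tnfsf13b 0.253 ± 0.067 CPM per kb, also with overlapping libraries. In naive joints the order differed at Tnfrsf12a, whose 11.1 ± 4 CPM per kb overlapped the 13.1 ± 1.01 of Ltbr and lay above the 4.72 ± 1.12 of Tnfrsf1b in every library. In KBxN + aGP120 joints Tnfrsf1a reached 30.7 ± 6.53 and Ltbr 14.7 ± 4.17 CPM per kb, and Tnfrsf1b, with 8.42 ± 2.99, overlapped Tnfrsf12a, with 7.06 ± 2.86.

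**Figure D1:**
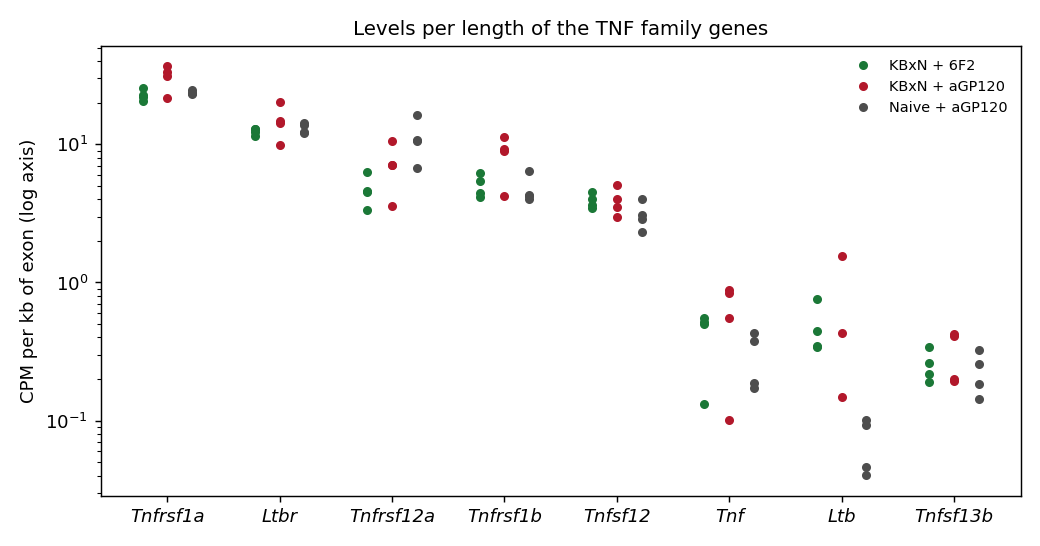
Levels of the 8 genes in CPM per kilobase of exon on a log axis, 1 point per library, with genes ordered by mean level and groups side by side. Tnfrsf1a lies highest at 20.5 to 36.7 CPM per kb, while Tnf, Ltb and Tnfsf13b lie mostly below 1, and the KBxN + aGP120 library with 0 Ltb counts cannot be drawn on this axis.

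Of the 8 genes, 7 passed the filter on low counts and were tested with edgeR, and Ltb did not pass. None of the 7 was called, at an edgeR adjusted p under 0.05 over all 16674 tested genes, in any of the 3 comparisons. The background of called genes was 3.29% for KBxN + 6F2 against KBxN + aGP120 (1.59% higher and 1.7% lower) and 10.3% for KBxN + aGP120 against naive (5.87% higher and 4.45% lower), so that a count of 0 among 7 is near what such shares give. The background was 0% for KBxN + 6F2 against naive, where edgeR called 0 genes, DESeq2 called 20 (0.12%) and 675 genes had an unadjusted edgeR p under 0.05. At that unadjusted p, 2 of the 7 genes (28.6%) passed in KBxN + 6F2 against KBxN + aGP120 and 2 in KBxN + aGP120 against naive, close to the 24.4% and 28.2% of all genes that did. In KBxN + 6F2 against naive 1 of the 7 passed, against 4.05% of all genes. Groups that did not overlap were found for 0 of the 8 genes in the first 2 comparisons, where the background was 10% (5.18% higher and 4.82% lower) and 12.5% (6.02% higher and 6.47% lower). For KBxN + 6F2 against naive they were found for 2 of the 8, Tnfrsf12a and Ltb, where the background was 4.89%. The first 2 comparisons share the KBxN + aGP120 mice, so opposite signs in them are not independent.

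The receptors Tnfrsf1a and Tnfrsf1b came nearest to the threshold. Tnfrsf1a, which carries a death domain and signals both inflammation and cell death, had 57.1, 59.2, 53.2 and 66.1 CPM in KBxN + 6F2 mice, 55.7, 80.6, 95.1 and 86.6 CPM in KBxN + aGP120 mice and 64.6, 61.1, 60.2 and 60.5 CPM in naive mice. KBxN + aGP120 mice 2, 3 and 4 lay above every other mouse, and mouse 1 of that group among the lowest, so the groups overlapped. The log2 fold change was -0.43 ± 0.14 (SE; 95% interval -0.75 to -0.11; edgeR adjusted p = 0.0902) for KBxN + 6F2 against KBxN + aGP120. It was 0.37 ± 0.14 (0.05 to 0.69; edgeR adjusted p = 0.107) for KBxN + aGP120 against naive. For KBxN + 6F2 against naive it was -0.07 ± 0.14, and the interval of -0.39 to 0.25 leaves changes of that size possible in either direction.

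Tnfrsf1b, the second TNF receptor, which lacks a death domain, had 23.6, 20.9, 15.8 and 16.9 CPM in KBxN + 6F2 mice, 16, 34.4, 43 and 35.2 CPM in KBxN + aGP120 mice and 16.1, 15.3, 24.4 and 16.3 CPM in naive mice. The same 3 KBxN + aGP120 mice were highest, and mouse 1 again lay at the level of naive mice. The log2 fold change was -0.74 ± 0.26 (edgeR adjusted p = 0.111) for KBxN + 6F2 against KBxN + aGP120, 0.60-fold of the level under the control antibody. It was 0.83 ± 0.26, or 1.78-fold, for KBxN + aGP120 against naive (edgeR adjusted p = 0.0571). This difference passed with DESeq2 (0.81 ± 0.27, adjusted p = 0.0217), the 1 call DESeq2 made among these genes. DESeq2 called 17.4% of all genes in that comparison and 11.2% in KBxN + 6F2 against KBxN + aGP120. For KBxN + 6F2 against naive it was 0.10 ± 0.26, with an interval of -0.49 to 0.68.

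Without KBxN + aGP120 mouse 1, the calls for both TNF receptors changed. Both were as low in this mouse as in naive mice, so that leaving it out was bound to enlarge their differences. The adjusted p of that fit are no independent evidence. KBxN + 6F2 against KBxN + aGP120 then had 3 of the 8 genes lower and none higher, where 23% of all genes were called, 12% lower and 11.1% higher. These were Tnfrsf1a (-0.56 ± 0.10, edgeR adjusted p = 0.00163), Tnfrsf1b (-0.95 ± 0.18, edgeR adjusted p = 0.00231) and Ltbr (-0.39 ± 0.13, edgeR adjusted p = 0.0441). KBxN + aGP120 against naive then had Tnfrsf1a (0.49 ± 0.10, edgeR adjusted p = 0.00267) and Tnfrsf1b (1.05 ± 0.18, edgeR adjusted p = 0.000836) higher, together with Ltb, where 27.2% of all genes were called, 14.5% higher and 12.7% lower. Ltb passed the filter in that fit, unlike in the fit of all 12 libraries, through its counts in the KBxN groups. KBxN + 6F2 against naive still had 0% called. Leaving out mice 2 and 4 of that group left Tnfrsf1b at -0.58 and 0.69 in the same comparisons, in fits that called only 0 and 1 of 17336 genes, so that the absence of calls there says nothing of these 8. The macrophage and fibroblast marker sums and the Gm26917 share given above were highest in the same 3 mice as these receptors, and their part in the receptor levels was not tested. In whole joints, fewer cells of a type and less RNA per cell cannot be told apart.

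**Figure D2:**
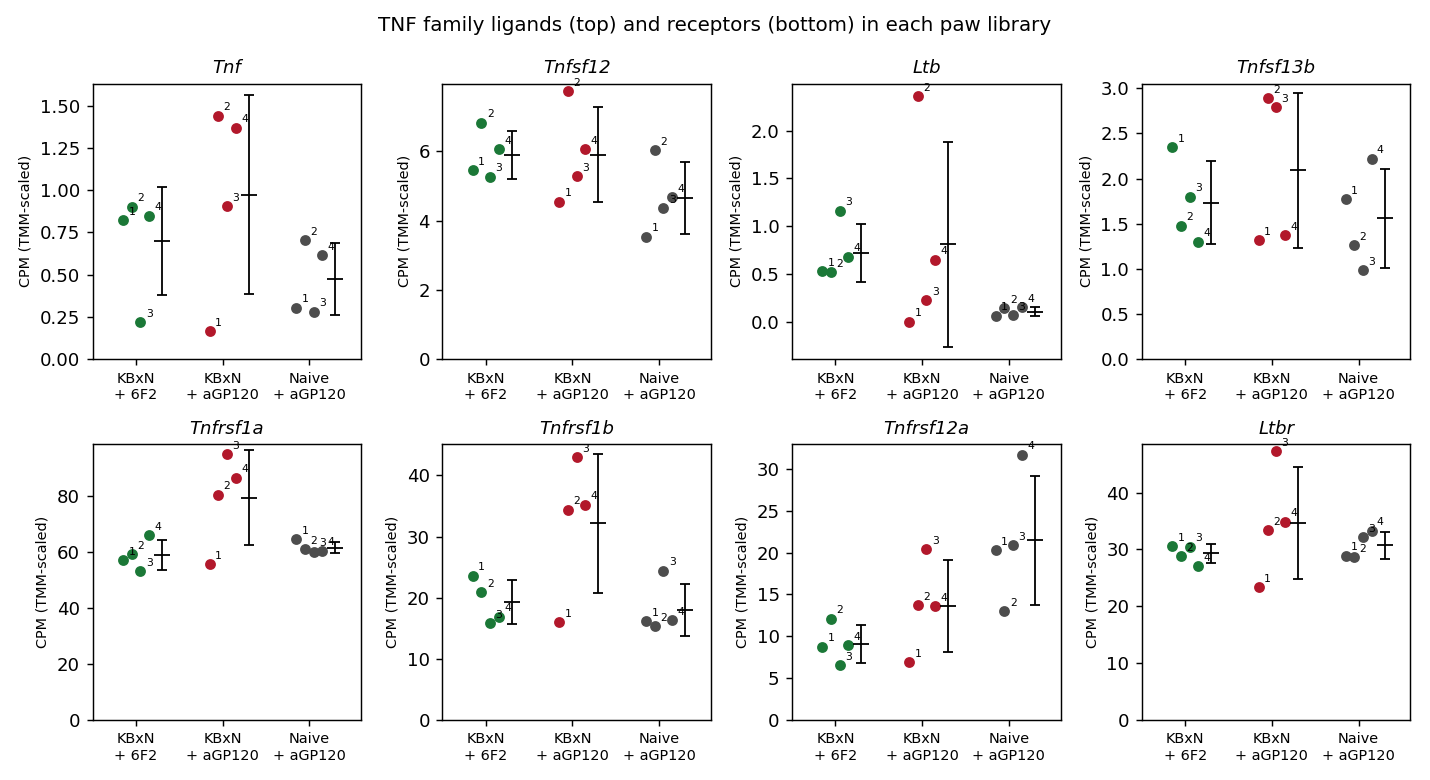
TMM-scaled CPM of the 4 ligands (top) and 4 receptors (bottom), 1 numbered point per mouse, with group mean and SD in black beside the points. Tnfrsf1a and Tnfrsf1b are highest in KBxN + aGP120 mice 2, 3 and 4 (80.6 to 95.1 and 34.4 to 43 CPM), Tnfrsf12a is lower in all KBxN + 6F2 mice (6.5 to 12.1 CPM) than in all naive mice (13 to 31.7 CPM), and Ltb is at or below 0.153 CPM in naive mice.

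Tnfrsf12a (Fn14), the receptor of TWEAK, had a pattern of its own. It had 8.76, 12.1, 6.5 and 8.95 CPM in KBxN + 6F2 mice, 6.86, 13.7, 20.4 and 13.6 CPM in KBxN + aGP120 mice and 20.3, 13, 20.9 and 31.7 CPM in naive mice. All 4 KBxN + 6F2 mice lay below all 4 naive mice, whereas the KBxN + aGP120 mice overlapped both groups. Among tested genes, 1.85% were lower without overlap in KBxN + 6F2 than in naive mice. The log2 fold change against naive was -1.24 ± 0.32 in KBxN + 6F2 mice, 0.423-fold (95% interval -1.97 to -0.51; unadjusted p = 0.00203, edgeR adjusted p = 1), and -0.65 ± 0.32 in KBxN + aGP120 mice (edgeR adjusted p = 0.2). Adjusted p of the KBxN + 6F2 against naive difference ran from 0.098 with DESeq2 to 1 over 22 alternative settings, and the log2 fold change from -1.41 to -0.96. KBxN + 6F2 against KBxN + aGP120 gave -0.59 ± 0.32 (edgeR adjusted p = 0.279). Without KBxN + aGP120 mouse 1 this was -0.80 ± 0.28 (edgeR adjusted p = 0.0541), and KBxN + aGP120 against naive was -0.44 ± 0.28 (edgeR adjusted p = 0.27). The 12 skeletal muscle markers summed to 229000, 232000, 203000 and 117000 CPM in KBxN + 6F2 mice and 117000 to 227000 CPM in KBxN + aGP120 mice. In naive mice they summed to 176000, 206000, 225000 and 308000 CPM. Their median log2 fold change was -0.05 in KBxN + 6F2 against naive, with 0 called. The 12 epidermis markers summed to 298, 49.6, 308 and 14800 CPM in KBxN + 6F2 mice and 416 to 3850 CPM in KBxN + aGP120 mice. Naive mice had 11500, 4210, 3080 and 46.8 CPM of them. Their median log2 fold change in KBxN + 6F2 against naive was -0.715, with 0 called. KBxN + 6F2 mouse 2 and naive mouse 4, the lowest, are called skin-poor below. The part of muscle or skin in the Tnfrsf12a result was not tested.

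Ltbr, the receptor of lymphotoxin beta on stromal cells, had 30.6, 28.8, 30.5 and 27 CPM in KBxN + 6F2 mice, 23.3, 33.4, 47.3 and 34.9 CPM in KBxN + aGP120 mice and 28.9, 28.6, 32.2 and 33.3 CPM in naive mice. The KBxN + aGP120 mice held both the lowest and the highest value. The log2 fold change was -0.25 ± 0.17 (edgeR adjusted p = 0.377) for KBxN + 6F2 against KBxN + aGP120 and 0.18 ± 0.17 (edgeR adjusted p = 0.522) for KBxN + aGP120 against naive. The second of these, with KBxN + aGP120 mouse 1 left out, was 0.32 ± 0.13 (edgeR adjusted p = 0.0867). KBxN + 6F2 against naive gave -0.07, with a 95% interval of -0.45 to 0.30.

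Among the ligands, Tnf itself was near the limit of detection. Its counts were 14, 14, 3 and 15 in KBxN + 6F2 mice, 2, 11, 12 and 19 in KBxN + aGP120 mice and 5, 10, 4 and 8 in naive mice. Scaled to library size this was 0.698 ± 0.322, 0.972 ± 0.588 and 0.475 ± 0.214 CPM, in the same order of groups. All 3 groups overlapped, with KBxN + aGP120 mouse 1 below the detection floor of 3 counts and KBxN + 6F2 mouse 3 at it. The log2 fold change was -0.45 ± 0.62 for KBxN + 6F2 against KBxN + aGP120 (95% interval -1.84 to 0.95; edgeR adjusted p = 0.698) and 1.01 ± 0.64 for KBxN + aGP120 against naive (-0.44 to 2.46; edgeR adjusted p = 0.319). These intervals, which hold the spread between mice as well as counting error, include a 2-fold fall in the first comparison and a 2-fold rise in the second. With KBxN + aGP120 mouse 1 left out, the values were -0.79 ± 0.57 and 1.36 ± 0.58 (edgeR adjusted p = 0.344 and 0.0996). Mice 2 and 4 of that group had its highest Tnf levels, 1.44 and 1.37 CPM. Without both of them the values were 0.41 ± 0.78 and 0.16 ± 0.79, so that the first changed sign and the second nearly vanished.

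Ltb, which is made mainly by lymphocytes, had 9, 8, 16 and 12 counts in KBxN + 6F2 mice, 0, 18, 3 and 9 counts in KBxN + aGP120 mice and 1, 2, 1 and 2 counts in naive mice. All KBxN + 6F2 mice lay above all naive mice, with 0.72 ± 0.3 CPM against 0.106 ± 0.0474 CPM, and 3.04% of tested genes were higher without overlap in that comparison. KBxN + aGP120 mice, with 0.81 ± 1.07 CPM, ranged from 0 to the highest value of all. The summed counts gave a ratio of 6.78 for KBxN + 6F2 over naive mice, with an exact 95% interval of 2.88 to 19.5 that covers counting error only, not the spread between mice. For KBxN + aGP120 over naive mice it was 6.19 (2.54 to 18.2), and for KBxN + 6F2 over KBxN + aGP120 mice 1.1 (0.675 to 1.8). In an edgeR fit of all libraries without the filter, Ltb was not called (edgeR adjusted p = 1 for both comparisons of KBxN + 6F2 mice and 0.0924 for KBxN + aGP120 against naive). Without KBxN + aGP120 mouse 1, this fit called Ltb higher in KBxN + aGP120 than in naive mice (log2 fold change 3.09 ± 0.90, edgeR adjusted p = 0.00663). That mouse had 0 Ltb counts, so leaving it out was bound to enlarge the difference, and the call is no independent evidence. With the filter, 27.2% of all genes were called there without that mouse. Without mice 2 and 4 of that group, which had 18 and 9 counts, the log2 fold change was 0.11 ± 1.14.

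Lymphocyte markers were scarce in the same libraries. The 12 T cell markers summed to 4.77 to 9.46 CPM in KBxN + 6F2 mice, 2.73 to 11.8 CPM in KBxN + aGP120 mice and 2.39 to 4.81 CPM in naive mice, with 0 to 5 markers at 0 in a library and 3 of 12 abundant enough to be tested. The highest T cell sum and the highest Ltb value were both in KBxN + aGP120 mouse 2, the library with 516 CPM in smell and taste receptor genes. Defining T cell genes did not share 1 order of groups. Summed over the mice of a group and not scaled to depth, which was lowest in KBxN + aGP120, Cd3e had 32 counts in KBxN + 6F2, 5 in KBxN + aGP120 and 12 in naive mice. Cd3g had 14, 25 and 16, Cd3d 7, 9 and 4, and Trac 5, 1 and 9 in the same order. The 12 B cell markers summed to 74.1 to 106 CPM in KBxN + 6F2 mice, 56.7 to 91.7 CPM in KBxN + aGP120 mice and 60.4 to 71.5 CPM in naive mice, and most of this was Ebf1, which stromal cells also make. The part of lymphocytes in the Ltb counts was not tested. Lta, the partner of Ltb in the lymphotoxin heterotrimer, had 6 counts over KBxN + 6F2 mice, 2 over KBxN + aGP120 mice and 10 over naive mice, and Tnfsf14 (LIGHT), another Ltbr ligand, had 4, 22 and 1.

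Tnfsf12 (TWEAK) was the most abundant of the 4 ligands per length. It had 5.46, 6.83, 5.27 and 6.06 CPM in KBxN + 6F2 mice, 4.55, 7.75, 5.29 and 6.07 CPM in KBxN + aGP120 mice and 3.53, 6.04, 4.36 and 4.68 CPM in naive mice. The 3 groups overlapped. KBxN + 6F2 against KBxN + aGP120 gave a log2 fold change of 0.00 ± 0.22 with a 95% interval of -0.50 to 0.51, and the comparisons with naive gave 0.34 ± 0.22 for KBxN + 6F2 and 0.34 ± 0.22 for KBxN + aGP120 mice (edgeR adjusted p = 1 and 0.337). Without KBxN + aGP120 mouse 1 the first was -0.09 ± 0.23 and the last 0.44 ± 0.23 (edgeR adjusted p = 0.813 and 0.181). Tnfsfm13, which shares exon bases with it, had 8 to 28 counts in each library.

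Tnfsf13b (BAFF) had 2.35, 1.48, 1.8 and 1.3 CPM in KBxN + 6F2 mice, 1.32, 2.89, 2.79 and 1.37 CPM in KBxN + aGP120 mice and 1.77, 1.26, 0.984 and 2.22 CPM in naive mice. No group stood apart. The log2 fold change was -0.26 ± 0.38 for KBxN + 6F2 against KBxN + aGP120 (95% interval -1.12 to 0.60) and 0.41 ± 0.39 for KBxN + aGP120 against naive (-0.46 to 1.28), with edgeR adjusted p of 0.719 and 0.513. They were, without KBxN + aGP120 mouse 1, -0.42 ± 0.40 and 0.57 ± 0.40 (edgeR adjusted p = 0.493 and 0.321). Of its receptors, Tnfrsf13b averaged 2.64 ± 0.63 CPM in KBxN + 6F2 mice, 3.02 ± 1.5 CPM in KBxN + aGP120 mice and 1.77 ± 0.341 CPM in naive mice, and was not called in any comparison (edgeR adjusted p of 0.189 or more). Tnfrsf13c (BAFF-R) and Tnfrsf17 were too low to be tested, with at most 18 and 24 counts over any group.

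**Figure D3:**
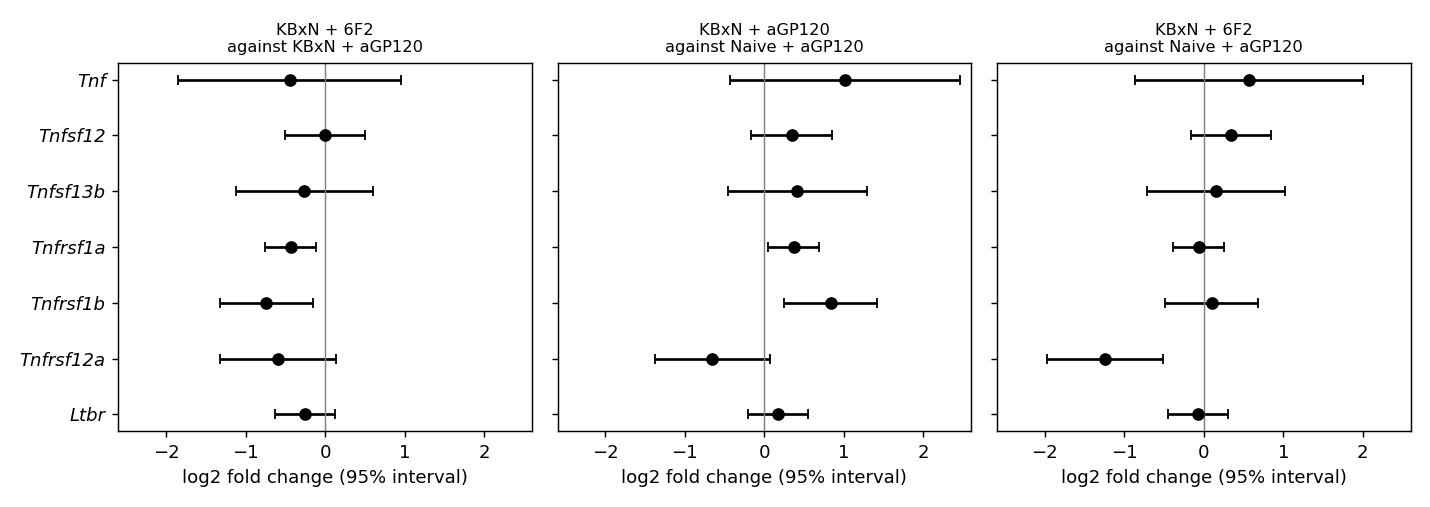
Log2 fold changes of the 7 tested genes with 95% intervals built from the edgeR estimates and SE in the 3 comparisons, where 0 is no difference. In KBxN + 6F2 against KBxN + aGP120 the intervals of Tnfrsf1a and Tnfrsf1b lie below 0 (upper ends -0.11 and -0.15), in KBxN + aGP120 against naive they lie above 0, and in KBxN + 6F2 against naive the interval of Tnfrsf12a lies below 0, all before adjustment over genes.

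Ratios within a library do not depend on how libraries are scaled, and 3 of them were compared in 9 exact two-sided permutation tests. The smallest p that 4 against 4 mice can give is 0.0286. The log2 ratio of Tnfrsf12a to its ligand Tnfsf12 was 0.59 ± 0.22 in KBxN + 6F2 mice, 1.13 ± 0.59 in KBxN + aGP120 mice and 2.15 ± 0.73 in naive mice. KBxN + 6F2 mice lay below naive mice without overlap, with a difference of -1.56 (exact permutation p = 0.0286, adjusted over the 9 tests 0.193). The difference was -1.03 for KBxN + aGP120 against naive (exact permutation p = 0.0857, adjusted 0.193) and -0.54 for KBxN + 6F2 against KBxN + aGP120 (exact permutation p = 0.143, adjusted 0.257). The log2 ratio of Tnfrsf1b to Tnfrsf1a was -1.62 ± 0.30 in KBxN + 6F2 mice, -1.37 ± 0.29 in KBxN + aGP120 mice and -1.80 ± 0.33 in naive mice, with exact permutation p of 0.286 for KBxN + 6F2 against KBxN + aGP120, 0.0571 for KBxN + aGP120 against naive and 0.429 for KBxN + 6F2 against naive. That of Ltbr to Tnfrsf1a was -1.01 ± 0.21 in KBxN + 6F2 mice, -1.21 ± 0.14 in KBxN + aGP120 mice and -1.01 ± 0.15 in naive mice, with exact permutation p of 0.229, 0.0857 and 1 in the same comparisons. No ratio passed after adjustment, and the lowest adjusted value was 0.193. A ratio at the smallest possible p could pass only if most of the 9 tests were at that p as well. The adjusted result therefore cannot tell whether the ratio of Tnfrsf12a to Tnfsf12 differed. Without KBxN + aGP120 mouse 1 the ratio of Tnfrsf12a to Tnfsf12 differed by -0.72 for KBxN + 6F2 against KBxN + aGP120 and by -0.85 for KBxN + aGP120 against naive. That of Tnfrsf1b to Tnfrsf1a then differed by -0.40 and 0.57, and that of Ltbr to Tnfrsf1a by 0.19 and -0.19, with exact permutation p of 0.171 or more after adjustment.

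**Figure D4:**
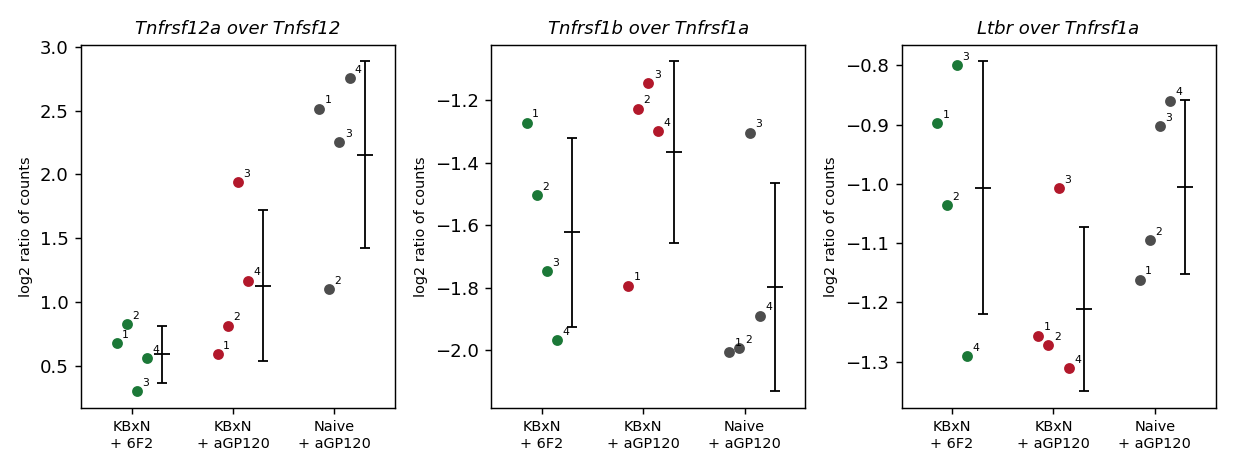
Log2 ratios of counts within each library, 1 numbered point per mouse with group mean and SD in black. The ratio of Tnfrsf12a to Tnfsf12 averages 0.59 in KBxN + 6F2 mice, 1.13 in KBxN + aGP120 mice and 2.15 in naive mice, and the other ratios overlap between all groups.

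The genes whose levels followed each of the 7 tested genes most closely over the 12 libraries, by Pearson r of log2 CPM among 11811 candidates, are a description only, since libraries share depth, scaling and composition. For Tnf they were Rce1 (r = 0.918, Spearman rho = 0.923), the macrophage growth factor receptor Csf1r (r = 0.91, rho = 0.958) and the complement gene C1qc (r = 0.897, rho = 0.888). For Tnfrsf1a they were Calu (r = 0.965, rho = 0.727), Slc39a1 (r = 0.96) and Ttc37 (r = 0.951). For Tnfrsf1b they were Clic4 (r = 0.966, rho = 0.944), Tmem263 (r = 0.965) and Fam111a (r = 0.962). For Tnfrsf12a they were Azin1 (r = 0.914, rho = 0.881), Slc35a4 (r = 0.87) and Irf2bpl (r = 0.866). For Ltbr they were Sh3rf3 (r = 0.941), Tal1 (r = 0.934) and Tpcn2 (r = 0.918), for Tnfsf12 Tle6 (r = 0.864), Dkk2 (r = 0.851) and Chn1 (r = 0.841), and for Tnfsf13b Sfswap (r = 0.92), Brpf1 (r = 0.875) and S1pr1 (r = 0.86).

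Around these 8 genes, 5 lists of the same pathway were followed. Tnfaip3 stands both in the list of proximal signalling and in that of TNF-responsive genes, so its call is counted in each. Over all genes, 3.29% were called in KBxN + 6F2 against KBxN + aGP120 and 10.3% in KBxN + aGP120 against naive. Of 14 other TNF superfamily ligands 5 were tested, and 1, Tnfsf11 (RANKL, which drives osteoclast formation), was called. It averaged 0.751 ± 0.316 CPM in KBxN + 6F2 mice, 9.48 ± 7.53 CPM in KBxN + aGP120 mice and 0.343 ± 0.289 CPM in naive mice. Its counts summed to 48, 424 and 19 over the mice of these groups, so the sizes of its changes are uncertain. Tnfsf11 fell by 3.64 ± 0.77 on the log2 scale in KBxN + 6F2 against KBxN + aGP120 (edgeR adjusted p = 0.0347) and rose by 4.78 ± 0.85 in KBxN + aGP120 against naive (edgeR adjusted p = 0.0103). The fall lost its call in 9 of the 12 fits that left out 1 mouse (adjusted p up to 0.112), and the rise kept it in all 12. Both were larger without KBxN + aGP120 mouse 1, at -4.01 ± 0.51 and 5.16 ± 0.55. Of 24 other TNF superfamily receptors 18 were tested and 0 were called by edgeR in any comparison. The receptors with the smallest p were Tnfrsf19 (1.05 ± 0.35, edgeR adjusted p = 0.103) and the death receptor Tnfrsf10b (-1.07 ± 0.42, edgeR adjusted p = 0.142) in KBxN + 6F2 against KBxN + aGP120. In KBxN + aGP120 against naive they were Tnfrsf11a, the RANKL receptor RANK (0.80 ± 0.25, edgeR adjusted p = 0.0594), and Tnfrsf10b (1.29 ± 0.43, edgeR adjusted p = 0.0676). Without KBxN + aGP120 mouse 1, when 20 receptors were tested, 6 were called in each of these comparisons, where 23% and 27.2% of all genes were called. These 6 held each receptor just named in its comparison.

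The list of TNF processing and release covers the sheddase Adam17 with its partners and the proteins that bind AU-rich elements, and all 14 of its genes were tested. In KBxN + aGP120 against naive, where 5.87% of all genes rose and 4.45% fell, 2 of these 14 rose and 1 fell. Zfp36, which destabilises Tnf mRNA through the element shown above, rose by 1.31 ± 0.19 to 34.2 ± 3.23 CPM in KBxN + aGP120 mice, against 13.8 ± 3.46 CPM in naive mice (edgeR adjusted p = 0.00532). Its relative Zfp36l1 rose by 0.66 ± 0.17 (edgeR adjusted p = 0.0318), and Timp3, an inhibitor of Adam17, fell by 0.55 ± 0.16 (edgeR adjusted p = 0.0478). The calls of Zfp36l1 and Timp3 were lost in 7 and 9 of the 12 fits that left out 1 mouse, up to adjusted p of 0.0996 and 0.131. In KBxN + 6F2 against KBxN + aGP120, 0 of 14 were called by edgeR, where 3.29% of all genes were. The smallest p were those of Rhbdf2, a partner of Adam17, at -0.69 ± 0.19 (edgeR adjusted p = 0.0583) and Timp3 at 0.58 ± 0.16 (edgeR adjusted p = 0.0621). Both passed without KBxN + aGP120 mouse 1 (-0.71 ± 0.20 and 0.75 ± 0.14, edgeR adjusted p = 0.0202 and 0.00181), where 23% of all genes were called. Against naive, Zfp36 was at 1.30 ± 0.19, Zfp36l1 at 0.77 ± 0.15 and Timp3 at -0.72 ± 0.14 without that mouse. Zfp36 was at 30.3 ± 5.9 CPM in KBxN + 6F2 mice, 1.13 ± 0.18 above naive mice on the log2 scale, with an unadjusted p of 2.85e-05 and an edgeR adjusted p of 0.476. That difference was called in 2 of 22 alternative settings, with adjusted p from 5.25e-05 to 1. Zfp36l1 was 0.47 ± 0.17 above naive mice in KBxN + 6F2 mice (edgeR unadjusted p = 0.0159) and was not called.

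The list of proximal signalling holds 36 adaptors, kinases, ubiquitin enzymes and NF-kB proteins that act just below TNF receptors, all tested. In KBxN + aGP120 against naive, 5.87% of all genes rose and 4.45% fell. In the list 11 of 36 rose and 2 fell, with a median log2 fold change of 0.18 against 0.03 over all genes. The genes with the smallest p were Nfkbia, the inhibitor of NF-kB, which rose by 1.01 ± 0.18 to 80.2 ± 21.3 CPM in KBxN + aGP120 mice, against 39.9 ± 2.62 CPM in naive mice (edgeR adjusted p = 0.00999), Nfkb2 (1.40 ± 0.26, edgeR adjusted p = 0.0103), Relb (1.18 ± 0.23, edgeR adjusted p = 0.0121) and Birc3, a ubiquitin ligase bound to TRAF2 (1.41 ± 0.28, edgeR adjusted p = 0.0124). Nfkb2 and Relb form the NF-kB dimer of the pathway that Ltbr, Fn14 and BAFF-R are known to use. The pair that fell, named because of its small number, was Traf3, an adaptor that restrains that pathway (-0.60 ± 0.15, edgeR adjusted p = 0.0296), and the deubiquitinase Otulin (-0.62 ± 0.17, edgeR adjusted p = 0.035). Traf3 and Otulin were lower in KBxN + 6F2 than in naive mice as well, at -0.36 ± 0.15 and -0.41 ± 0.17 (edgeR unadjusted p = 0.0339 and 0.0296). Neither was called there, where 4.05% of all genes had an unadjusted p under 0.05. Of all genes, 1.7% fell and 1.59% rose in KBxN + 6F2 against KBxN + aGP120. In the list 4 genes fell and 0 rose. They were Relb (-1.20 ± 0.23, edgeR adjusted p = 0.0271), Nfkbia (-0.88 ± 0.18, edgeR adjusted p = 0.0314), Nfkb2 (-1.19 ± 0.26, edgeR adjusted p = 0.0338) and Tnfaip3, an enzyme that ends TNF signalling (-0.88 ± 0.22, edgeR adjusted p = 0.048). Each of these 4 lost its call in 6 to 11 of the 12 fits that left out 1 mouse. Leaving out 1 mouse at a time gave 0 to 15 calls for KBxN + 6F2 against KBxN + aGP120 and 4 to 17 for KBxN + aGP120 against naive. The most came without KBxN + aGP120 mouse 1, where 23% and 27.2% of all genes were called. In that fit Relb was at -1.40 and 1.38, Nfkb2 at -1.41 and 1.62 and Nfkbia at -0.98 and 1.10 in these comparisons.

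The list of 28 genes known to respond to TNF, of which 24 were tested, had the largest median differences of the 5 lists in each comparison. In KBxN + aGP120 against naive, where 5.87% of all genes rose and 4.45% fell, 16 of 24 rose and 0 fell. The median log2 fold change was 2.23 against 0.03 over all genes. The smallest p were those of the chemokines Ccl7 (5.09 ± 0.67, edgeR adjusted p = 0.00503), Cxcl5 (7.85 ± 1.04, edgeR adjusted p = 0.00535), Cxcl1 (5.01 ± 0.75, edgeR adjusted p = 0.00602) and Ccl2 (3.10 ± 0.48, edgeR adjusted p = 0.0062). Cxcl5, a chemokine for neutrophils, averaged 0.31 ± 0.238 CPM in KBxN + 6F2 mice, 25.9 ± 19.1 CPM in KBxN + aGP120 mice and 0.101 ± 0.0887 CPM in naive mice. Mmp3, a matrix-degrading enzyme, averaged 3.28 ± 1.3, 97.4 ± 74.2 and 2.23 ± 0.294 CPM in the same order. Summed over the mice of a group, Cxcl5 had 19, 1127 and 6 counts and Cxcl1 had 78, 407 and 15, again in this order. The naive mean of Cxcl5 lay below the detection floor of 3 counts. So few counts in naive mice leave the sizes of these fold changes uncertain. In KBxN + 6F2 against KBxN + aGP120, where 1.7% of all genes fell and 1.59% rose, 11 of 24 fell and 0 rose. The median was -1.99 against -0.03 over all genes. The smallest p were those of Cxcl5 (-6.38 ± 0.91, edgeR adjusted p = 0.0158), Mmp3 (-4.89 ± 0.76, edgeR adjusted p = 0.0239), Bcl3, a nuclear regulator of NF-kB (-2.29 ± 0.44, edgeR adjusted p = 0.0291), and the monocyte chemokine Ccl7 (-2.83 ± 0.57, edgeR adjusted p = 0.0319), and their calls were lost in 4 to 8 of the 12 fits that left out 1 mouse. Many of these genes also respond to interleukin 1 and other cytokines, and several were already seen to move in these libraries when the list was drawn up, so that its direction is not independent evidence.

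The summed level of these 28 genes was 374 to 439 CPM in KBxN + 6F2 mice, 400 to 1260 CPM in KBxN + aGP120 mice and 352 to 411 CPM in naive mice. KBxN + aGP120 mouse 1 was the one at 400 CPM, and the other 3 lay at 735 to 1260 CPM. The 11 calls became 19 of 26 tested genes without this mouse and 0 to 5 in the other 11 fits that left out 1 mouse, naive mice included, while the median stayed between -2.33 and -1.47. Of the rises in KBxN + aGP120 against naive, 8 to 21 genes were called in these 12 fits, again with the most without mouse 1. In the fit without mouse 1, 23% of all genes were called in the first of these comparisons and 27.2% in the second. In KBxN + 6F2 against naive, edgeR called 0 genes of any of the 5 lists. The median there was 0.19 for the 24 genes, with Ccl7 at 2.26 ± 0.65 (unadjusted p = 0.00435, edgeR adjusted p = 1) and Junb, an AP-1 transcription factor, at 0.73 ± 0.23 (unadjusted p = 0.00761, edgeR adjusted p = 1).

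**Figure D5:**
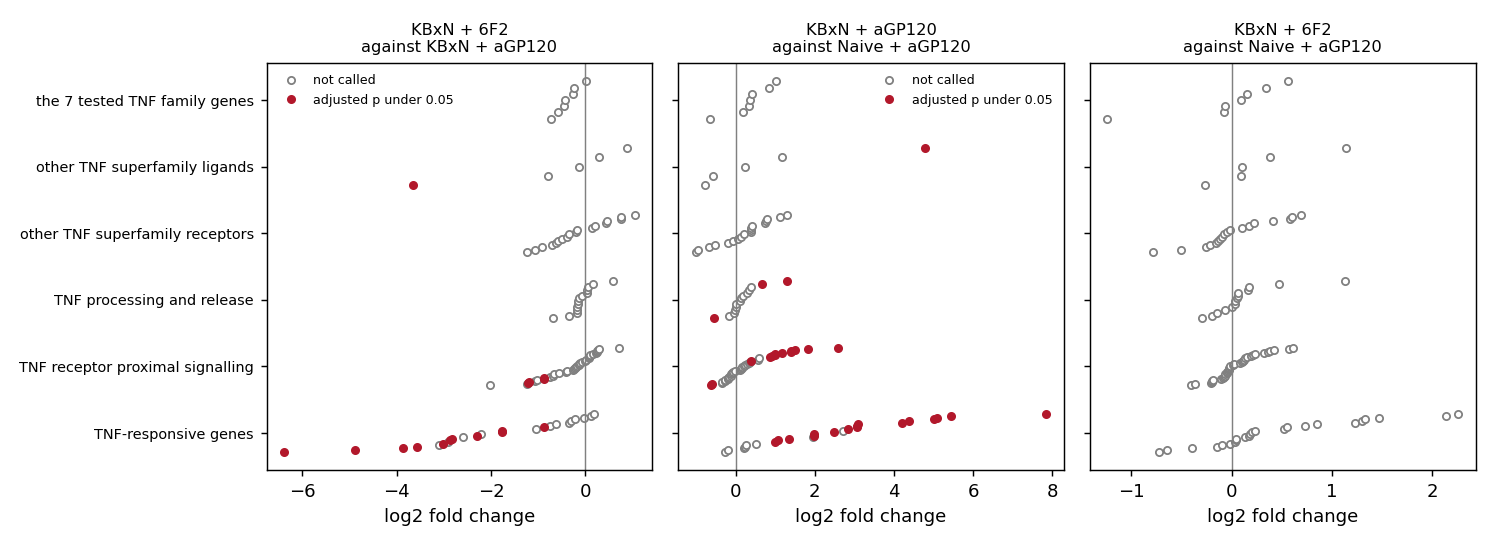
Log2 fold changes of the 7 tested TNF family genes and of 5 pathway lists in the 3 comparisons, 1 point per gene sorted within its list, with filled points for an edgeR adjusted p under 0.05. None of the 7 genes is filled, whereas 16 of 24 TNF-responsive genes are filled to the right in KBxN + aGP120 against naive and 11 to the left in KBxN + 6F2 against KBxN + aGP120.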

How the data were processed

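RNA from mouse paw joints was extracted on columns and made into strand-marking libraries (TruSeq), per the labels' protocols. The deposited files hold the authors' raw read counts per gene, without normalization. The build is GRCm38, per the submitters' processing notes, and the sources used here name no aligner, counter or strand setting. Symbols came from GENCODE M21 (52403 of 52636 identifiers).

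Counts were tested with edgeR 4.0.16 in R 4.3.3: filterByExpr (16674 genes), TMM, a robust quasi-likelihood fit of all 12 libraries, and Benjamini-Hochberg adjustment at 0.05. CPM is TMM-scaled. Mice of 1 group always differed by more than counting noise (lowest chi-square per gene 8.26). Intervals of fold changes were built from the edgeR log2 fold change and SE with a t distribution on the residual degrees of freedom. The edgeR p rests on more degrees of freedom, so that interval and p need not match exactly. These intervals hold the spread between mice, whereas the Ltb ratio's interval and the floors cover counting error only. Ratios added 0.5 counts.

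The genes and lists were chosen with earlier results of these data known. Named from each list were up to 4 called genes with the smallest p, or the 2 smallest where none passed. Genes named as background to a ligand or marker list (Lta, Tnfsf14, Tnfrsf13b, Tnfrsf13c, Tnfrsf17, Cd3d, Cd3e, Cd3g, Trac, Ebf1) were chosen for their role. For likeness, the 3 genes with the highest Pearson r were taken, computed from log2 CPM (prior count 2). Alternatives were DESeq2 1.42.0, limma-voom (limma 3.58.1), RLE size factors, other filters, no robust dispersion, the 2 groups alone, a replicate block, and libraries left out. The scripts were tested on simulated data.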

Additional observations from a re-analysis of the deposited data

Results flagged for a closer look

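In 24 sets of 4 mice (8 genes in 3 groups), a mouse far from the others of its group was found in 2, and chance alone gives about 1 in 20. Tnf was 0.217 CPM in KBxN + 6F2 mouse 3, from 3 counts, whereas the other 3 mice of that group lay between 0.823 and 0.902 CPM. Tnfrsf1b was 24.4 CPM in naive mouse 3, whereas the other 3 naive mice lay between 15.3 and 16.3 CPM.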

How the results depend on the processing

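For KBxN + 6F2 against KBxN + aGP120, the 548 called genes became 1871 with DESeq2, 345 with limma-voom (221 higher and 124 lower), 78 with the replicate block, and 0 with only these 2 groups, without KBxN + aGP120 mice 2 and 4, or without the skin-poor libraries naive 4 and KBxN + 6F2 2. For KBxN + aGP120 against naive, the 1721 became 2905 with DESeq2, 435 with only these 2 groups, 735 with the replicate block, 1 without mice 2 and 4 and 166 without the skin-poor libraries, and limma-voom gave 486 higher and 677 lower. For KBxN + 6F2 against naive, 4 genes were called with no filter and 20 with DESeq2. Leaving out 1 mouse gave 0 to 3976, 412 to 4694 and 0 to 0 called genes in these comparisons, and 0 to 3, 0 to 3 and 0 to 0 called TNF family genes. DESeq2 called 1, Tnfrsf1b in KBxN + aGP120 against naive. Nothing in the sample titles says that replicate numbers pair mice. Deviations of mice with the same number correlated at -0.8 to 0.207, which does not decide the question. The replicate block changed no call of these 8 genes. With no filter the median of all genes moved to -0.35 and 0.38 in the comparisons that hold KBxN + aGP120.

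Some signs turned. For KBxN + 6F2 against KBxN + aGP120, Ltb was -0.067 with RLE and -0.085 with DESeq2 and ran from -0.41 to 1.32 on leaving out 1 mouse. There Tnf, at -0.45 with all libraries, was 0.41 without mice 2 and 4, and Tnfsf12 was -0.006 with the 1 CPM filter, -0.037 without the skin-poor libraries and -0.092 to 0.155 on leaving out 1 mouse. Leaving out 1 mouse also turned KBxN + 6F2 against naive for Tnfrsf1b (-0.014 to 0.279), Tnfsf13b (-0.03 to 0.40) and the ratio of Ltbr to Tnfrsf1a (-0.07 to 0.094), and KBxN + aGP120 against naive for Ltbr (-0.017 to 0.317). The causes were not tested. Depth limits Tnf and Ltb, at 0 to 19 counts per library.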
